A study of Homo sapiens with 2 samples.

Results

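The genes described here are 10 genes of the prostaglandin E2 pathway around PTGS2, out of 58735 genes listed in the count table. They were chosen by symbol for their role in the release of arachidonic acid and in the synthesis, uptake, breakdown and sensing of prostaglandin E2. PTGS2 itself had been singled out for its fold change between these same libraries, so its change is given as a description and supports nothing further. RNA sequencing was carried out on PLC8024 cells, the PLC/PRF/5 hepatoma line also known as Alexander cells, to ask which genes depend on MAEL, a germline protein found again in tumours. There was 1 library of wild-type cells (MAEL WT, labelled non-treated) and 1 library of MAEL knockout cells (MAEL KO), and the labels name no further agent for either. The knockout was made with an sgRNA and Cas9, and sorted cells were seeded for single clones. How many clones the sequenced culture held is not given in the sources used here. With 1 library in each group there was no replicate check of any difference, and no p-value was computed.

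Prostaglandin E2 is made from arachidonic acid that a phospholipase cuts out of membrane lipids. A cyclooxygenase turns the acid into prostaglandin H2, and a terminal synthase turns that into prostaglandin E2, which leaves the cell, acts on receptors at the cell surface, and is carried back in and oxidised. PTGS1 is the cyclooxygenase of resting cells and PTGS2 (COX-2) the one that growth factors, cytokines and stress switch on, and PTGS2 is the target of COX-2 inhibitors and has long been studied in liver and colon cancer.

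PTGS2 and PLA2G4A, whose products follow one another in the pathway, were both counted in MAEL WT and almost or entirely without counts in MAEL KO, and they lie side by side on chromosome 1. Their upstream sequences are shown because the findings turn on these genes. They are from RefSeq on GRCh38.p14, written 5′ to 3′ on the gene's own strand and lying wholly upstream of the deposited gene model. Capitals mark matches to the motifs searched. The PTGS2 sequence covers 246 bases at chr1:186680428-186680673 on the minus strand, and the PLA2G4A sequence covers 250 bases at chr1:186828699-186828948 on the plus strand.
PTGS2: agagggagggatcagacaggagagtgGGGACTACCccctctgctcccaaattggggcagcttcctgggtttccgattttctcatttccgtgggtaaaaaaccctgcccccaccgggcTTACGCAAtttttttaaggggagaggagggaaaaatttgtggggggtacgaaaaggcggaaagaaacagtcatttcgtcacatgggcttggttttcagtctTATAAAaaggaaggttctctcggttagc
PLA2G4A: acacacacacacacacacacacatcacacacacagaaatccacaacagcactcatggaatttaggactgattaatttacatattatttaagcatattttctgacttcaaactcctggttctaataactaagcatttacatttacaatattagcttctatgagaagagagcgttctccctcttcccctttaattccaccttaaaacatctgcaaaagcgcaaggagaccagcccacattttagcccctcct

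RefSeq promoter windows were matched for 9 of the 10 genes, in 13 windows, and the 250 bases before each start were searched on both strands for 7 short motifs. PTGS2 held the NF-kB motif GGGANTNCC as GGGACTACC, beginning 224 bases before its RefSeq start. It was the 1 member with that motif, which 3.75% of all 35116 windows held. The C/EBP motif TTNCNNAA was present as TTACGCAA at 133 bases before the PTGS2 start and read as a match on both strands. That motif was common, in 33.2% of all windows, and it was also found in windows of PTGES2 and PTGS1. A TATAAA box stood 32 bases before the PTGS2 start, and 10.7% of all windows held those letters. The PLA2G4A sequence held none of the 7 motifs. The GC box GGGCGG was found in 10 of the 13 windows, against 42.6% of all windows, but not in those of PTGS2 or PLA2G4A. Exact matches to the cyclic AMP element TGACGT and the AP-1 motif TGANTCA were in no member window, where 7.10% and 6.57% of all windows held them. The E-box CACGTG, in 6.34% of all, was in a PTGES2 window alone among the members. Variants of an element with other letters were not searched for, so a window without a match may still hold 1. A match is a run of letters and not a shown binding site, and these windows do not reach the farther upstream part of the PTGS2 promoter. By its reporter deletions, the study placed the CEBPB site that it mutated in that farther part. The C/EBP match at 133 bases is therefore not the site of the study.

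The libraries held 19904136 counts for MAEL WT and 20833332 for MAEL KO, so that 3 counts, the floor used here, amounted to 0.151 and 0.144 CPM (counts scaled to a common library total). MAEL itself had 1 count in MAEL WT and 0 in MAEL KO. Both values lie at or under the floor, so that the count of MAEL could not check the labels. Of the 11 hepatocyte markers, 0 fell and 4 rose past the threshold used below: ALB from 59 to 8550 counts, AFP from 26 to 1351, APOA1 from 419 to 4400 and TTR from 20 to 155. The summed level of this list was 14021 CPM in MAEL WT and 27160 in MAEL KO. Of the 6 cholangiocyte markers, KRT7 (60 and 1 counts), KRT19 (13 and 1) and EPCAM (15 and 0) fell past it. The list did not move as 1, since 1 marker was higher in MAEL KO by more than 1 on the log2 scale. Of the 6, 5 were below 0 on the log2 scale and 4 were lower by more than 1. The summed levels of the 6 were close, at 39.8 and 37.0 CPM, but a sum is set mainly by the best-counted markers. Of all tested genes, 5.64% fell and 2.16% rose past the threshold. At most 3 counts in both libraries were held by 2 of 7 leukocyte, 3 of 5 endothelial and 4 of 7 fibroblast and stellate markers. Among them were PTPRC (3 and 0 counts), CD3E (0 and 0), VWF (1 and 0) and DCN (3 and 0). The summed levels were 67.9 and 36.5 CPM for 7 leukocyte markers (3 tested), 17.8 and 19.6 for 5 endothelial markers (2 tested, 0 called) and 13.8 and 8.50 for 7 fibroblast and stellate markers (3 tested, with COL1A1 lower at 92 and 11). LYZ (1251 and 737 counts) and PECAM1 (348 and 392) made up most of the leukocyte and endothelial sums. The part of these changes in single hepatocyte and cholangiocyte markers in the results for PTGS2 and its pathway was not tested. In bulk RNA fewer cells of a type and less RNA per cell cannot be told apart.

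Changes are given as the log2 of the ratio of MAEL KO to MAEL WT, after scaling the libraries to each other and adding 1 to each scaled count. A gene was called higher or lower in MAEL KO when this value was above 2 or below -2, the fold threshold of the study. Genes under 10 counts in both libraries were left out, which kept 17887 genes, 9 of the 10 members among them. SLCO2A1, with 0 counts in both, was not tested. The 95% intervals come from the counts and cover counting error only. With 1 library per group they hold no variation between clones, cultures or libraries. No molecular identifiers tell reads of 1 molecule from reads of several, so repeated reads could make them too narrow.

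Of the 9 members tested, 2 (PTGS2 and PLA2G4A) fell past the threshold, where 5.64% of all tested genes did, and 0 rose past it, where 2.16% of all did. At a looser value of 1 on the log2 scale, 5 members were lower, with PTGER4, PTGES and PTGER2 added, and 0 were higher. Among all tested genes 16.5% were lower and 10.2% higher at that value. The median change of the 9 members was -1.40, beside -0.04 for all tested genes. The counting interval lay below 0 for 5 members, above 0 for 2 and across 0 for 2. Most members were genes of low abundance: 7 of the 9 had a mean scaled count from 20 to 300, a range set after their values were seen. Of the 5654 genes in that range 7.00% fell past the threshold and 22.9% were lower at the looser value, and their median was -0.29. Because the genes were picked with these values known, the counts are read as a description and no more.

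**Figure D1:**
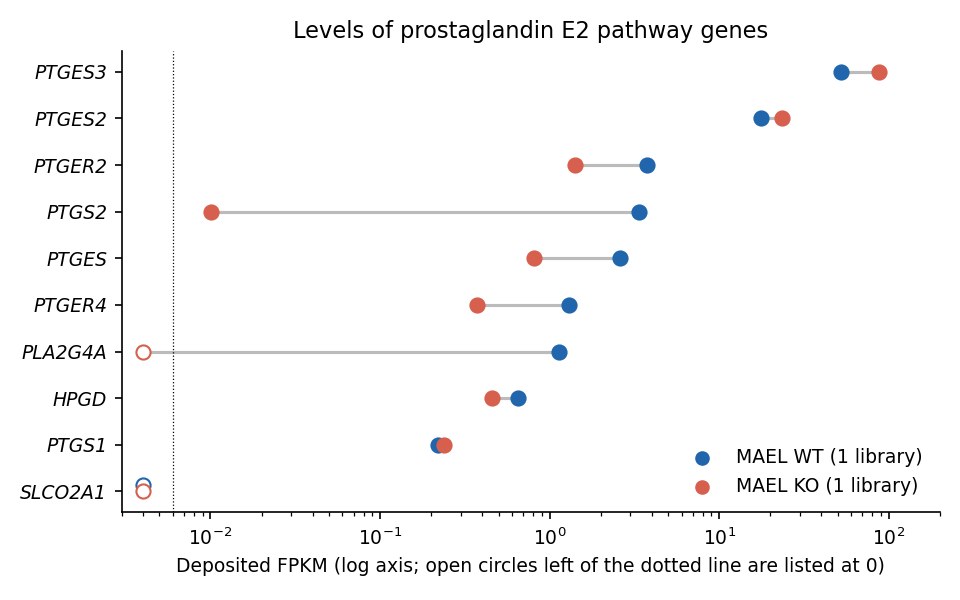
Deposited FPKM (x axis, log scale) of the 10 genes in the MAEL WT library (blue) and the MAEL KO library (red), 1 point per library, with open circles at the left for genes listed at 0. PTGS2 drops from 3.38 to 0.010 and PLA2G4A from 1.13 to 0, while PTGES3 and PTGES2 stand highest in both libraries.

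PLA2G4A encodes the cytosolic phospholipase A2 that releases arachidonic acid from membranes when calcium rises, the first step of the pathway. The gene (ENSG00000116711) lies at chr1:186828953-186988981 on the plus strand of GRCh38, with up to 18 exons in a transcript. It had 71 counts in MAEL WT and 0 in MAEL KO, or 1.13 and 0 FPKM. Against the floor of 3 counts its MAEL KO level was at least 20.5-fold lower. The upper end of the counting interval of its log2 change was -4.02. The fitted value of -6.07 depends on the count added and is not a bound.

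PTGS2 catalyses the committed, rate-limiting step in cells where it is induced. The gene (ENSG00000073756) lies at chr1:186671791-186680427 on the minus strand and has up to 10 exons in a transcript. Reads numbered 390 in MAEL WT and 1 in MAEL KO, or 3.38 and 0.010 FPKM. The scaled level in MAEL WT was 337 times that in MAEL KO, with a counting interval of 60.1 to 13348, and 112 times the level that 3 counts would give in MAEL KO. The log2 change was -7.45 (interval -13.70 to -5.91). A change lower than this was found in 0.00559% of all tested genes, which is 1 gene, KLHDC7B, whose own value depends on the count added because it had 0 counts in MAEL KO. PTGS2 was therefore well within reach of the sequencing in MAEL WT and below the floor in MAEL KO.

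PTGS1 (ENSG00000095303), the constitutive cyclooxygenase, lies at chr9:122370530-122395703 on the plus strand and made a contrast with PTGS2. It had 28 counts in MAEL WT and 26 in MAEL KO, or 0.221 and 0.237 FPKM, both low. Its log2 change was 0.10 (interval -0.72 to 0.93), and it was -0.17 when the libraries were scaled by their total counts, so no direction was read. The change of PTGS2 was lower than that of PTGS1 by a log2 difference of -8.45 (interval -13.86 to -5.75). Per length, PTGS2 was 15.3 times as abundant as PTGS1 in MAEL WT (interval 10.4 to 23.3). In MAEL KO the order was turned round, with PTGS1 at 23.7 times PTGS2 (interval 3.89 to 970). At this depth the interval for PTGS1 reached from 0.605 to 1.90 times its MAEL WT level.

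**Figure D2:**
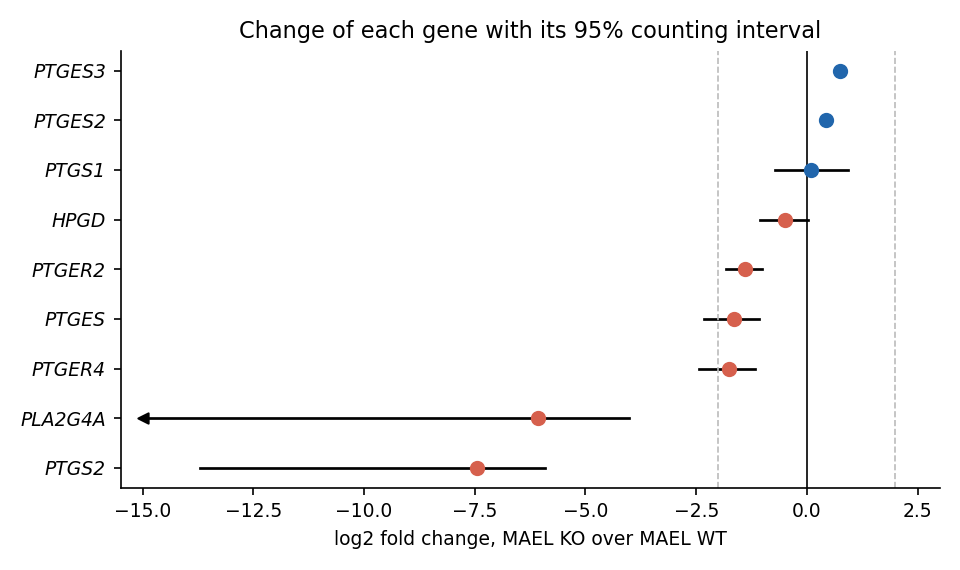
Log2 ratio of MAEL KO to MAEL WT (x axis) for the 9 tested genes, with bars for the 95% counting interval, an arrow where it has no lower end (PLA2G4A), and dashed lines at -2 and 2. PTGS2 at -7.45 and PLA2G4A lie wholly below -2, PTGER4, PTGES and PTGER2 lie between -1.76 and -1.40, and the bars of PTGES2 and PTGES3 are narrower than their points.

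The 3 terminal synthases differed in level and in their ratio between the libraries. PTGES (ENSG00000148344), the microsomal synthase that is usually induced together with PTGS2, lies at chr9:129738331-129753047 on the minus strand and had 108 counts in MAEL WT and 29 in MAEL KO, or 2.60 and 0.807 FPKM. Its log2 change of -1.66 (interval -2.33 to -1.08), 3.22-fold, did not pass the threshold of 2. PTGES2 (ENSG00000148334; chr9:128120693-128128462, minus strand), a synthase expressed in most cells, had 1169 and 1358 counts, with a log2 change of 0.43 (interval 0.31 to 0.54). PTGES3 (ENSG00000110958; chr12:56663341-56688408, minus strand), known as the cytosolic synthase and as p23, a partner of the chaperone HSP90, had 3895 and 5634 counts and a log2 change of 0.74 (interval 0.68 to 0.80). Neither of these passed the threshold, and both were smaller with total-count scaling, at 0.15 and 0.47. The table also lists a processed pseudogene, PTGES3P1, with 86 and 146 counts, and how the counting shared reads between it and PTGES3 was not tested.

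The difference between the inducible synthase and the others was larger than the counting error. The change of PTGES was lower than that of PTGES2 by -2.11 on the log2 scale (interval -2.77 to -1.5) and lower than that of PTGES3 by -2.43 (interval -3.08 to -1.82). Per length, PTGES3 was 20.1 times as abundant as PTGES in MAEL WT and 108 times in MAEL KO, and PTGES2 went from 6.75 to 29.2 times PTGES. PTGES3 stood at 2.98 and 3.71 times PTGES2. The bulk of the transcripts for terminal synthases thus came from PTGES3 and PTGES2 in both libraries.

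SLCO2A1 (ENSG00000174640; chr3:133928145-134052184, minus strand), the transporter that carries prostaglandins back into cells, had 0 counts in both libraries, which allows up to 0.151 CPM in MAEL WT and 0.144 in MAEL KO. HPGD (ENSG00000164120; chr4:174490177-174523154, minus strand), the dehydrogenase that inactivates prostaglandin E2, had 79 counts in MAEL WT and 48 in MAEL KO, or 0.653 and 0.458 FPKM. Its log2 change of -0.50 had an interval of -1.06 to 0.03, so that a difference was not detectable at this depth. The breakdown enzyme was therefore counted at a low level in both libraries and the uptake transporter in neither.

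PTGER2 and PTGER4 encode EP2 and EP4, the prostaglandin E2 receptors that raise cyclic AMP. PTGER2 (ENSG00000125384; chr14:52314305-52328606, plus strand) had 203 counts in MAEL WT and 66 in MAEL KO, or 3.75 and 1.41 FPKM, a log2 change of -1.40 (interval -1.83 to -1.0) and 2.66-fold. PTGER4 (ENSG00000171522; chr5:40679498-40693735, plus strand) had 112 and 28 counts, or 1.29 and 0.373 FPKM, a log2 change of -1.76 (interval -2.44 to -1.18) and 3.46-fold. Both receptors were lower in MAEL KO by more than the counting error, and neither passed the threshold, but with total-count scaling PTGER4 passed it at -2.03. Their changes differed by 0.38 (interval -0.37 to 1.16), so that the order of the receptors was not resolved. Per length PTGER2 was 2.90 times as abundant as PTGER4 in MAEL WT (interval 2.29 to 3.69) and 3.78 times in MAEL KO (interval 2.39 to 6.10). PTGER4 overlaps TTC33 on the other strand, but no exons of the pair overlap.

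By FPKM, a level per gene length, the order in MAEL WT was PTGES3, PTGES2, PTGER2, PTGS2, PTGES, PTGER4, PLA2G4A, HPGD and PTGS1, from 52.4 to 0.221. Neighbours in that order that could not be told apart by counting error were PTGER2 and PTGS2, at a ratio of 1.11 (interval 0.931 to 1.32), and PTGER4 and PLA2G4A, at 1.14 (interval 0.843 to 1.56). In MAEL KO the order was PTGES3, PTGES2, PTGER2, PTGES, HPGD, PTGER4, PTGS1 and PTGS2, from 87.4 to 0.010, with PLA2G4A listed at 0. There HPGD and PTGER4 (ratio 1.23, interval 0.755 to 2.03) and PTGER4 and PTGS1 (ratio 1.57, interval 0.890 to 2.80) were not resolved. PTGS2 thus moved from the level of the receptor PTGER2 to the bottom of the counted members.

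**Figure D3:**
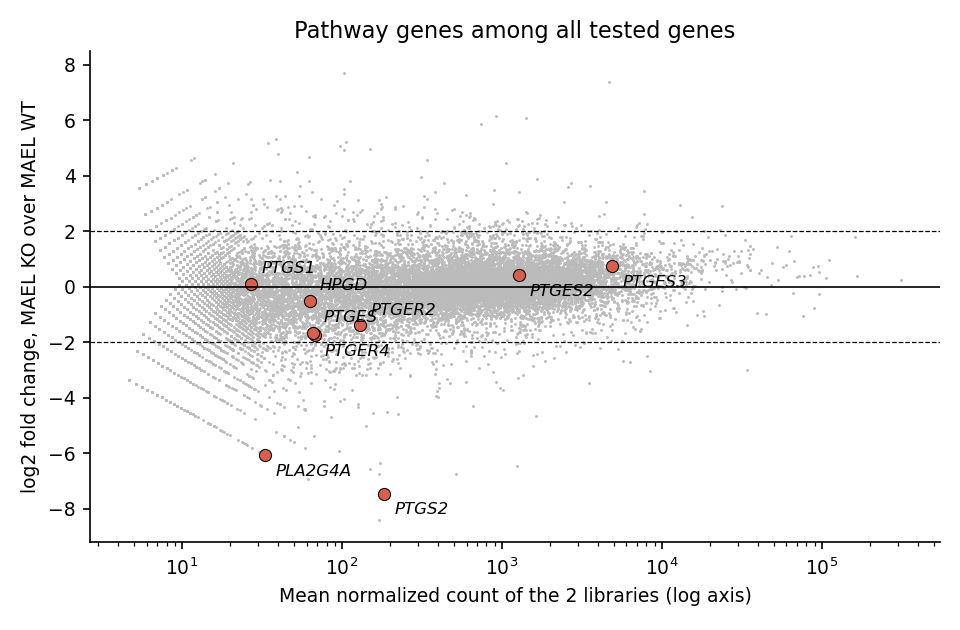
Log2 ratio of MAEL KO to MAEL WT (y axis) against the mean scaled count (x axis, log scale) for the 17887 tested genes (grey) and the 9 tested pathway genes (red), with dashed lines at -2 and 2. PTGS2 and PLA2G4A lie at the lower edge of the cloud for their abundance, and PTGES3 and PTGES2 lie inside it.

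A count of at least 50 in MAEL WT with at most 3 in MAEL KO, a limit set after the values of PTGS2 and PLA2G4A were seen, was met by 47 genes, or 0.358% of the 13145 genes with at least 50 counts in MAEL WT. Both of these members were among them, and none of the 47 had more counts in MAEL WT than PTGS2. The reverse, at least 50 counts in MAEL KO and at most 3 in MAEL WT, was met by 4 genes, or 0.0323% of 12402. The genes most like PTGS2 were taken as the 5 protein-coding genes with at most 3 counts in MAEL KO and the nearest log2 scaled count in MAEL WT, over the 2 libraries. They were KRT81, a hair keratin (368 and 3 counts), KLHDC7B (364 and 0), BST2, the antiviral protein tetherin (361 and 2), LTBR, the lymphotoxin beta receptor (318 and 2), and MX1, an interferon-induced GTPase (204 and 2). KRT81 has close paralogs with which reads may be shared. The last of these, MX1, lay 0.93 from PTGS2 on the log2 scale and KRT81 0.08, so the match was close for the first genes and loose for the last.

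PTGS2 and PLA2G4A are separated by 148.526 kb. The table lists 14 other genes with a start coordinate within 500 kb of that of PTGS2, of which 6 were tested. PACERR, a non-coding RNA that starts 195 bases beyond the PTGS2 end on the other strand and shares 52 bases with the sequence printed above, had 2 counts in MAEL WT and 0 in MAEL KO, too few for a comparison. On the far side of PTGS2, TPR, a nuclear pore protein, had 3588 and 4340 counts (log2 change 0.48). ODR4 had 816 and 728 (0.05). PRG4, which overlaps TPR, had 8 and 22 counts (1.55), and OCLM, which lies inside ODR4, had 20 and 10 (-0.74). Beyond PLA2G4A, ERVMER61-1 had 62 and 28 counts (-0.91), and neither this gene nor the others in the window passed the threshold apart from PLA2G4A.

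Taking the 5 nearest tested genes on each side, PLA2G4A among them, 2 of 10 fell past the threshold and 0 rose, where 5.64% and 2.16% of all tested genes did. The second was HMCN1, an extracellular matrix protein whose gene begins 937 kb from the PTGS2 start coordinate. The gene, at chr1:185734551-186190949, ends within 500 kb of that coordinate but was outside the window, which went by starts. It had 41 counts in MAEL WT and 7 in MAEL KO (log2 change -2.20, interval -3.74 to -1.17). On the other side the tested genes lay far off. AL136372.2, at 1342 kb, had 71 and 63 counts (0.04), and AL513175.2, at 5576 kb, had 11 and 22 (1.14). RGS2, a regulator of G protein signalling at 6137 kb, had 58 and 148 (1.54). Values below -2 were therefore seen at PTGS2, at PLA2G4A and at HMCN1, and the interval of HMCN1 reached above -2. The well-counted genes TPR (0.48) and ODR4 (0.05) lie between PTGS2 and HMCN1.

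**Figure D4:**
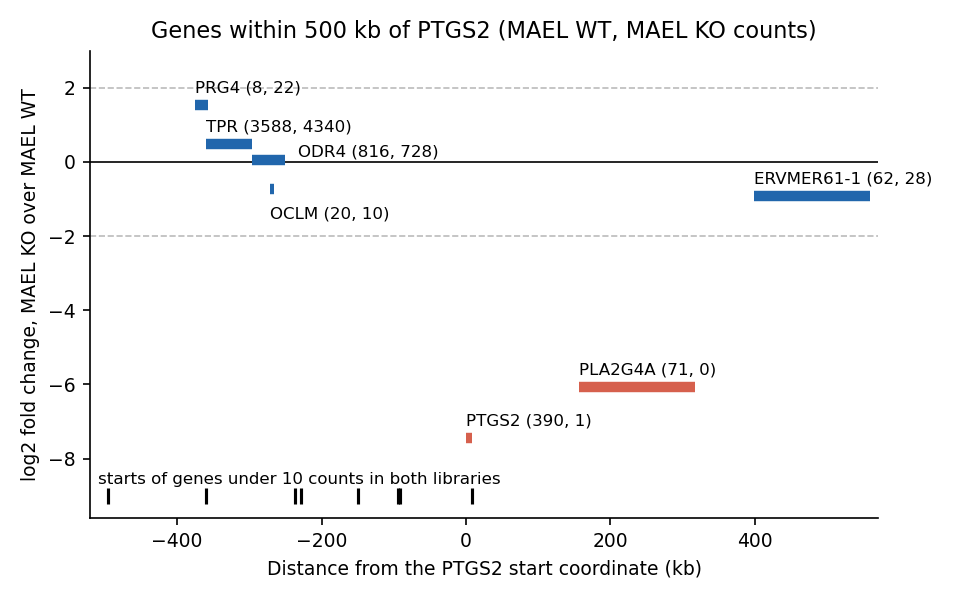
Log2 ratio of MAEL KO to MAEL WT (y axis) of the tested genes whose start coordinate is within 500 kb of that of PTGS2, drawn as bars over their extent up to the edge of the plot, with the counts of MAEL WT and MAEL KO in parentheses, against the distance from the PTGS2 start coordinate (x axis, kb). HMCN1, which starts farther off but reaches into this range, is not drawn. PTGS2 and PLA2G4A (red) lie below -2 and the other genes (blue) between -2 and 2, and ticks at the bottom are the starts of genes under 10 counts in both libraries.

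The other genes of prostaglandin E2 transport, breakdown and sensing were counted at very different depths. Of the 13 tested, 0 passed the threshold in either direction, 0 were lower and 2 higher at the looser value, and the median was 0.19. Among all tested genes 5.64% fell and 2.16% rose past the threshold, and 16.5% were lower and 10.2% higher at the looser value. ABCC4, the exporter of prostaglandin E2, had 3630 counts in MAEL WT and 2404 in MAEL KO (log2 change -0.38). PTGR1, an enzyme of prostaglandin breakdown, had 71 and 44 (-0.47), and CYP4F12, a fatty acid hydroxylase, had 101 and 215 (1.29). PTGER1, encoding the calcium-linked receptor EP1, had 3 and 12 counts, and PTGER3, encoding EP3, had 4 and 2. Of the receptor genes for prostaglandin E2, PTGER2 and PTGER4 therefore held most of the counts in both libraries.

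Genes for the other prostanoids were mostly not counted. Of 14 listed, 5 were tested, 0 passed the threshold or the looser value, and 8 had at most 3 counts in both libraries, among them PTGIS, the prostacyclin synthase (0 and 2), and TBXAS1, the thromboxane synthase (3 and 1). With 5 genes tested, and 16.5% lower and 10.2% higher at the looser value among all tested genes, the 0 says little about these genes. AKR1B1, an aldo-keto reductase that can make prostaglandin F2 alpha, had 848 and 394 counts (log2 change -0.89).

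Genes that release arachidonic acid or put it back into lipids had values on both sides of 0. Of 33 tested, 3 fell past the threshold and 0 rose, where 5.64% and 2.16% of all tested genes did, with a median of -0.13. The 3 were LPCAT2, an acyltransferase (70 counts in MAEL WT and 8 in MAEL KO, log2 change -2.78), PLA2G4C, a further cytosolic phospholipase A2 (207 and 26, -2.74), and FAAH, which hydrolyses anandamide (37 and 6, -2.25). The counting intervals of LPCAT2 (-4.19 to -1.86) and FAAH (-3.95 to -1.16) reached above -2. ACSL1 stood at -1.37. At the other end ACSL4, the acyl-CoA ligase that prefers arachidonic acid, had 12582 and 23264 counts (1.10), and S100A10, known to bind and inhibit the cytosolic phospholipase, had 2162 and 5090 (1.45). PLA2G1B had 6 and 14 counts (1.29). Among the genes of the PLA2G4 family, PLA2G4A and PLA2G4C fell past the threshold, and PLA2G4B (9 and 11 counts, 0.45) did not. PLA2G4D (1 and 0 counts), PLA2G4E (5 and 5) and PLA2G4F (3 and 4) were not tested.

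**Figure D5:**
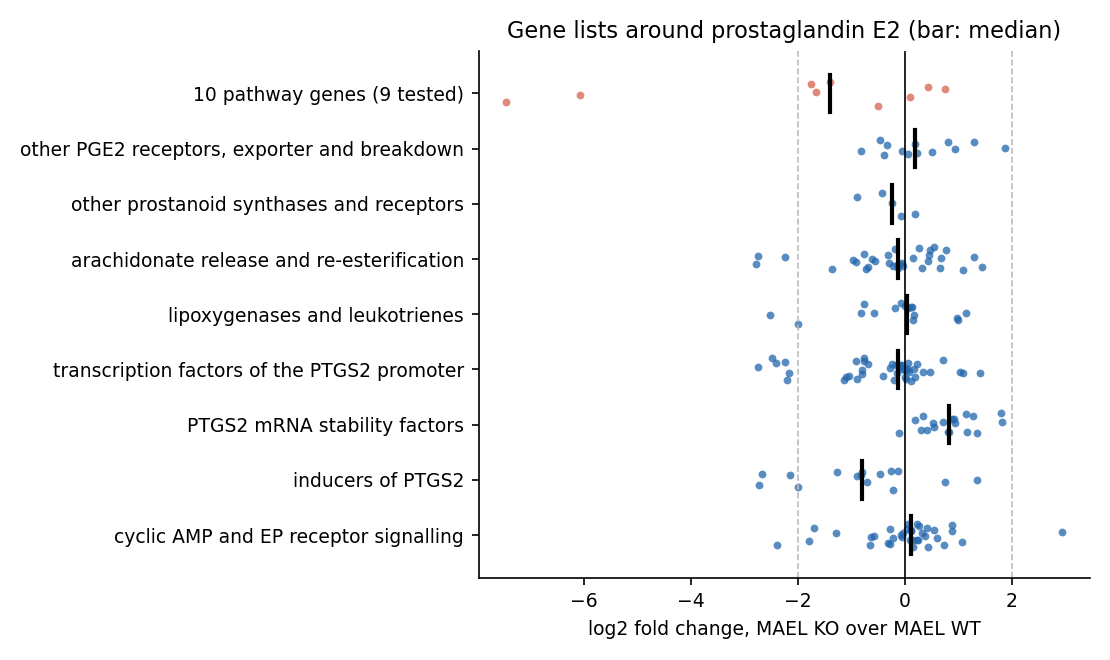
Log2 ratio of MAEL KO to MAEL WT (x axis) of each tested gene (points) in the pathway genes and 8 related gene lists (rows), with a bar at each median and dashed lines at -2 and 2. The medians of the lists range from -1.40 for the pathway genes to 0.83 for the mRNA stability factors.

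Among transcription factors known to act on the PTGS2 promoter, 6 of 44 tested fell past the threshold, 0 rose, and the median was -0.12. Beside this, 5.64% of all tested genes fell and 2.16% rose. CEBPB binds C/EBP sites, and the study examined such a site of the PTGS2 promoter farther upstream than the sequence printed above. The gene had 9375 counts in MAEL WT and 1723 in MAEL KO, a log2 change of -2.23 (interval -2.31 to -2.16). It overlaps the antisense gene CEBPB-AS1 (76 and 38 counts), exons included. The others were NFATC4 (323 and 41, -2.74), NFATC1 (20 and 3, -2.21) and the immediate-early or stress factors ATF3 (1170 and 180, -2.48), EGR1 (1883 and 304, -2.42) and FOSL1 (1320 and 254, -2.16). Counting intervals reached above -2 for NFATC1 (-4.92 to -0.77), which had 3 counts in MAEL KO, and for FOSL1 (-2.37 to -1.97). Related factors had other values. CEBPD had 700 and 1295 counts (1.10), and RELA, the p65 subunit of NF-kB, had 5101 and 4273 (-0.05). ETV4 (1.41) and TCF7L2 (1.04) were the other factors above the looser value.

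Of the signals known to induce PTGS2, 15 of 26 genes were tested, 4 fell past the threshold, 0 rose, and the median was -0.80. Of all tested genes, 5.64% fell and 2.16% rose, and the list was written with earlier results of these data known. All 4 are growth factors: AREG (11742 counts in MAEL WT and 1533 in MAEL KO, log2 change -2.73) and EREG (10556 and 1438, -2.66), which are ligands of the EGF receptor, HBEGF, a further such ligand (282 and 60, -2.01), and TGFB2 (60 and 11, -2.15). For HBEGF (-2.45 to -1.62) and TGFB2 (-3.31 to -1.30) the counting interval reached above -2. EGFR had a log2 change of 0.75, and IL1RAP, a subunit of the IL-1 receptor, had 258 and 568 counts (1.35). The classical cytokine inducers IL1B, IL6 and TNF had 0 counts in both libraries, and 11 genes of the list had at most 3 counts in both.

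The study also asked about AKT, STAT3 and interleukin 8. Over the 18 such genes tested the median was -0.19. Past the threshold 3 fell and 0 rose, where 5.64% and 2.16% of all tested genes did. CXCL8, which encodes interleukin 8, had 5434 counts in MAEL WT and 1039 in MAEL KO, a log2 change of -2.18 (interval -2.27 to -2.08). CXCL8 fell past the threshold, as did CEBPB, described above. The mRNA levels of AKT1 (0.48), AKT2 (0.17) and STAT3 (2967 and 2113 counts, -0.28) did not pass it. Phosphorylation of these proteins is not measured by RNA sequencing.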

How the data were processed

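PLC8024 cells were sequenced as 1 MAEL WT and 1 MAEL KO library, grouped by their labels. The authors deposited raw read counts per gene and FPKM values, the latter being counts per gene length and per library size rescaled between the libraries (1.10 and 0.910 times the totals). The submitters' processing notes name HISAT2 2.0.5, featureCounts 1.5.0-p3 and hg19, whereas the deposited coordinates are those of GRCh38: all 58735 identifiers are in GENCODE 29, 58724 of them with the same start and end. All columns of sample values were used. Whether counting used strand is not given in the sources used here.

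Counts were scaled by TMM in edgeR 4.0.16 (factors 1.10 and 0.909) under R 4.3.3, with size factors of DESeq2 1.42.0 as an alternative. Neither tool was used for a test. Log2 fold changes (1 added, at least 10 counts in at least 1 library, threshold 2) and exact Clopper-Pearson intervals of the MAEL KO share of counts (95%) used pandas 2.3.3, SciPy 1.17.1 and NumPy 2.4.6 in Python 3.11.15. Plots used matplotlib 3.10.9. The steps were tested on simulated data. With 0 counts in a library the fold is a bound against 3 counts. Where a ratio is printed for a gene with 1 to 3 counts, it has its interval. This is a change from the written design, which used the bound there too.

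The members and the 15 gene lists were chosen with earlier results of these data known. Named genes were the members, MAEL, up to 3 genes at each end of a list and those past the threshold, genes of the AKT, STAT3 and interleukin 8 axis, neighbours of PTGS2 and the 5 genes most like it. Some genes that this covers are not reported here. Other genes named were chosen after their values were seen. Promoters are those of RefSeq on GRCh38.p14.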

Additional observations from a re-analysis of the deposited data

How the results depend on the processing

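No paired analysis was possible because the labels carry no replicate numbers and each group has 1 library, and for the same reason no replicate could be left out. Of 45 values for the pathway genes under other scalings and added counts, 42 stayed within their counting interval, and no called gene changed sign. PTGS1 went from 0.10 to -0.17 with total counts. PLA2G4A was at -3.83 with 5 added to each count, and with total counts PTGES2 was at 0.15 and PTGES3 at 0.47. The number of pathway genes that fell was 1, PTGS2, with a filter of at least 100 counts, under which 6 of them were tested, 3 with total counts, where PTGER4 passed at -2.03, and 5 with a threshold of 1. Over all tested genes, 250 rose and 513 fell with 5 added to each count, 1029 and 1773 with no filter, 185 and 283 with at least 100 counts, and 1827 and 2951 with a threshold of 1, beside 387 and 1008 as reported. Total counts moved the median of all genes from -0.04 to -0.31 and the calls to 269 higher and 1309 lower, so that 17.0% of calls were higher against 27.7%. Of 105 list medians under alternatives 1 moved, that of the cyclic AMP genes, to -0.16 with total counts. At this depth the intervals of PTGS1 and HPGD span 0, that of PLA2G4A has no lower end, and SLCO2A1 could not be tested.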

Other observations

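Factors known to bind PTGS2 mRNA or set its stability stood higher in MAEL KO as a list. Of 19 tested, 0 passed the threshold of 2, and 6 were higher and 0 lower at a log2 value of 1. Of all tested genes 10.2% were higher and 16.5% lower at that value. The median of the list was 0.83, beside -0.04 for all tested genes. RBM3, a cold-inducible RNA-binding protein, had 3634 counts in MAEL WT and 11026 in MAEL KO (log2 change 1.81), HNRNPA1, which has many pseudogenes that may share its reads, had 9328 and 28099 (1.80), and HNRNPA2B1 had 13431 and 29505 (1.35). ELAVL1, the stabilising protein HuR, was at 0.89, ZFP36, the destabilising tristetraprolin, at 0.30, and TIA1, a translational silencer, at -0.11.

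Arachidonic acid is also turned into leukotrienes and other lipoxygenase products, and the leukotriene arm held few counts at its entry. ALOX5, the 5-lipoxygenase, had 1 count in MAEL WT and 0 in MAEL KO, and its activating protein ALOX5AP had 0 and 1. Of the other lipoxygenases, ALOX12 had 46 and 44 counts (log2 change 0.14, interval -0.48 to 0.77) and ALOX15 had 4 and 5. Of 16 genes tested, 1 fell past the threshold and 0 rose, with a median of 0.03. The gene that fell was ALOX12B, an epidermal lipoxygenase (25 and 3 counts, log2 change -2.52, interval -5.22 to -1.14). ALOXE3, its partner in skin, had 77 and 16 (-2.0) without passing the threshold. MGST2, LTA4H and MGST3, enzymes of leukotriene formation or conjugation, were at 1.14, 1.00 and 0.97. Among 36 genes of cyclic AMP signalling, which EP2 and EP4 use, 1 fell and 1 rose. RAPGEF3, the cyclic AMP sensor EPAC1, had 192 and 31 counts (-2.39, interval -3.02 to -1.87), and ADCY5, an adenylyl cyclase, had 6 and 46 (2.94). PRKAR2B and ADCY7 stood at -1.80 and -1.71 and NR4A1 at 1.07. The median of this list was 0.12 and turned to -0.16 with total counts. Beside both lists, 5.64% of all tested genes fell and 2.16% rose past the threshold.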
